A study of Arabidopsis thaliana with 3 samples.

Results

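The chromatin of UBP5-GFP seedlings was profiled by immunoprecipitation and sequencing (ChIP-seq) in 2 replicates, and 743 peaks on the chromosome arms were called in replicate 2 without any overlapping peak in replicate 1. These peaks are called unpaired here. They made up 9.08% of the 8185 replicate 2 peaks on the arms and were drawn from 10898 replicate 2 peaks on chromosomes 1 to 5. A peak was taken as unpaired when it shared 0 bp with every replicate 1 peak and when its summit, the position of highest signal, lay outside a pericentromeric window on its chromosome. The windows ran from 11.5 to 17.7 Mb on chromosome 1, from 1.1 to 7.2 Mb on chromosome 2, from 10.3 to 17.3 Mb on chromosome 3, from 1.5 to 6.3 Mb on chromosome 4 and from 9 to 16 Mb on chromosome 5. The 7442 replicate 2 arm peaks that overlapped a replicate 1 peak by at least 1 bp are called shared and serve as the comparison.

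The immunoprecipitate (IP) came from Arabidopsis thaliana seedlings of a line with genomic UBP5 fused to GFP, driven by its own promoter in the ubp5 mutant, with Col-0 as the ecotype, collected at 12 days after germination. Chromatin was fixed with 25 mM EGS and 1% formaldehyde and precipitated with an antibody against GFP. One input, sheared chromatin without IP, served both replicates, and the samples included no IP from GFP-free plants. Binding of UBP5 therefore cannot be told apart from background that arises in the IP alone. Whole seedlings were used, so the peaks mix all organs and cell types of the seedling.

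UBP5 is a ubiquitin-specific protease that removes ubiquitin from histone H2A. Polycomb repressive complex 1 places that ubiquitin, and Polycomb repressive complex 2 methylates histone H3 at repressed genes. In plants, Polycomb complexes reach many genes through short DNA words such as the Telobox, which is bound by Telomere Repeat Binding factors. Arabidopsis arms hold mostly single-copy genes, tandem gene families and scattered pseudogenes, and the pericentromeres hold most of the repeated DNA. Where a sequence occurs in identical copies, a read from one copy fits the others as well, and an aligner cannot tell from which copy it came.

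The sequences at the summits showed the main feature of the unpaired peaks, which is that many lay in duplicated DNA, as did many replicate 2-only peaks of the pericentromeric windows. For each peak, the 201 bp centred on the summit were searched against the genome, and a second place that matched at 98% identity or more over at least 180 bp was called a near-identical copy. The sequences printed here are 101 bases of such windows from the RefSeq TAIR10.1 assembly, written 5′ to 3′ on the strand given. The first set shows both summits of a pair of adjacent class III peroxidase genes, AT1G05240 at chr1:1522204-1522304 on the plus strand and AT1G05250 at chr1:1526067-1526167 on the minus strand, in coding exons.
AT1G05240: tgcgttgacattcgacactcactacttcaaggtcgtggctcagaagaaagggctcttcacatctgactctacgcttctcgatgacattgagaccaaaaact
AT1G05250: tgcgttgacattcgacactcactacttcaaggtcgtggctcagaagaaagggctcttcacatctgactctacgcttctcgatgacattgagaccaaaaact
These windows differed at 0 of 101 bases, and both genes carried an unpaired peak.

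The second set shows a tandem array on chromosome 4, in which the 5 genes AT4G06020, AT4G06025, AT4G06030, AT4G06035 and AT4G06040, annotated as uncharacterized RNA, each carried an unpaired peak in an exon. The window of AT4G06040 is at chr4:7702909-7703009 on the plus strand, and the same 101 bases stand without a difference in the other 4 genes, beginning at positions 7689874, 7693141, 7696392 and 7699643.
AT4G06040: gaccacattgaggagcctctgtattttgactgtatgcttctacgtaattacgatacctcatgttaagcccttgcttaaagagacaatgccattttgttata
The third set shows an unpaired peak whose closest copy lay in no peak of either replicate. The unpaired peak is in AT4G02314, at chr4:1020564-1020664, and its closest copy lies where AT2G34100 and AT2G34130 are annotated, at chr2:14411619-14411719, both on the plus strand. AT2G34100 held 2 unpaired summits elsewhere in the gene, and the comparison looked at this place only, not at the rest of the gene. The capital marks the 1 base that differs.
AT4G02314: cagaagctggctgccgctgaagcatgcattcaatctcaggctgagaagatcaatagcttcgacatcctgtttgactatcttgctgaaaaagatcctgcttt
AT2G34100: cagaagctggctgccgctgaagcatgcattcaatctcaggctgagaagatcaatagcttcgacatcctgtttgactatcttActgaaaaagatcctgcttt

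The last set shows the Telobox word AAACCCTA, in capitals, in 30 bases around it at 6 unpaired peaks with no near-identical copy. AT2G24680 encodes a B3 family transcription factor, RKP a protein related to a RING-type ubiquitin ligase subunit, NF-YB8 a subunit of the CCAAT-binding factor NF-Y, and MAP65-5 a microtubule-associated protein. AT4G11100 is annotated as a gelsolin protein, and AT5G47170 is uncharacterized. The strand is the one on which the word reads as printed. The windows are at chr2:10496815-10496844 (plus strand) in AT2G24680, chr5:19158787-19158816 (plus) in AT5G47170, chr2:9369200-9369229 (minus) in RKP, chr2:15576302-15576331 (minus) in NF-YB8, chr4:6768919-6768948 (minus) in AT4G11100 and chr2:16188271-16188300 (minus) in MAP65-5.
AT2G24680: cccaaaaaacaAAACCCTAgaaatcgctgt
AT5G47170: tttcttgtccgAAACCCTAgtttcaatctc
RKP: atttatttgaaAAACCCTAgcacaagtccg
NF-YB8: gaaagaaaaaaAAACCCTAactttacaaca
AT4G11100: aaattctgcaaAAACCCTAaatatccaagc
MAP65-5: atcagaagcatAAACCCTAtaaaatcaaaa

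The unpaired peaks were chosen from peak calls, so their strength is a description of what the choice left and is not tested. Fold enrichment, the ratio of the IP signal at the summit to the local level taken from the input, had a median of 1.58 in unpaired peaks (range 1.20 to 3.41) and 1.98 in shared peaks (range 1.31 to 15.3). The median −log10 of the q-value was 7.60 in unpaired and 19.9 in shared peaks, and the median width was 350 bp against 475 bp. The lists gave no value for replicate 1 at the unpaired positions. The background level of the caller was 44.0 in replicate 1 and 122.1 in replicate 2, and the lowest fold enrichment called at that level was 1.53 in replicate 1 and 1.32 in replicate 2. Replicate 1 thus needed a larger ratio for a call. At or above the ratio that replicate 1 would have needed stood 481 of 743 unpaired peaks (64.7%) and 6970 of 7442 shared peaks (93.7%). The remaining unpaired peaks had a ratio in replicate 2 at which replicate 1 would have made no call.

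At the edge of the rule, values on the 2 sides lay close together. Gaps to replicate 1 are measured between peak edges throughout. The 5 unpaired peaks nearest to a replicate 1 peak had gaps of 265, 272, 298, 302 and 307 bp and fold enrichments of 1.62, 1.37, 1.60, 1.39 and 1.70. The 5 shared peaks with the smallest overlaps had overlaps of 97, 110, 119, 124 and 125 bp and fold enrichments of 1.42, 1.49, 1.42, 1.43 and 1.63. Their replicate 1 partners had fold enrichments between 1.62 and 1.70. Few unpaired peaks sat at this edge, since the median gap to the nearest replicate 1 peak was 4524 bp, 25 gaps were under 500 bp, and 164 (22.1%) were over 10 kb.

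The position of the peaks in genes was compared next, since the rule did not use it. Of all peaks, unpaired ones were less often in coding exons, 5′ untranslated regions (UTRs) and introns than shared peaks, and far more often outside genes. Shares have exact 95% intervals and differences have Newcombe 95% intervals. Both cover counting error only, since peaks of 1 library are not replicates and peaks in copies of 1 sequence are not independent. Coding exons held 279 of 743 unpaired summits (37.6%, 34.1 to 41.1) and 3657 of 7442 shared summits (49.1%), a difference of -11.6 percentage points (-15.2 to -7.87). The 5′ UTRs held 12.1% of unpaired and 21.6% of shared summits, a difference of -9.48 points (-11.8 to -6.78). Introns held 12.8% of unpaired and 25.2% of shared summits, a difference of -12.4 points (-14.8 to -9.60). Summits outside genes, counting the 1000 bp on either side of a gene and with pseudogenes not counted as genes, made up 255 of 743 unpaired peaks (34.3%, 30.9 to 37.9) and 151 of 7442 shared peaks (2.03%). The difference in summits outside genes was 32.3 points (28.9 to 35.8), and most of it came from intergenic summits, at 28.4% of unpaired and 0.739% of shared peaks. Within protein-coding genes alone the direction for coding exons turned, with 59.5% of unpaired and 50.9% of shared summits, a difference of 8.58 points (3.93 to 13.1). There the 5′ UTR difference was -3.18 points (-6.63 to 0.742) and the intron difference -6.02 points (-9.53 to -2.05). In windows placed every 5 kb along the arms, 33.1% lay outside genes and 33.4% in coding exons, shares not far from those of the unpaired peaks. The make-up outside genes was different, since 28.4% of the unpaired summits and 10.5% of the windows were intergenic, and 3.23% of the unpaired summits and 16.4% of the windows lay upstream of a gene.

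**Figure D1:**
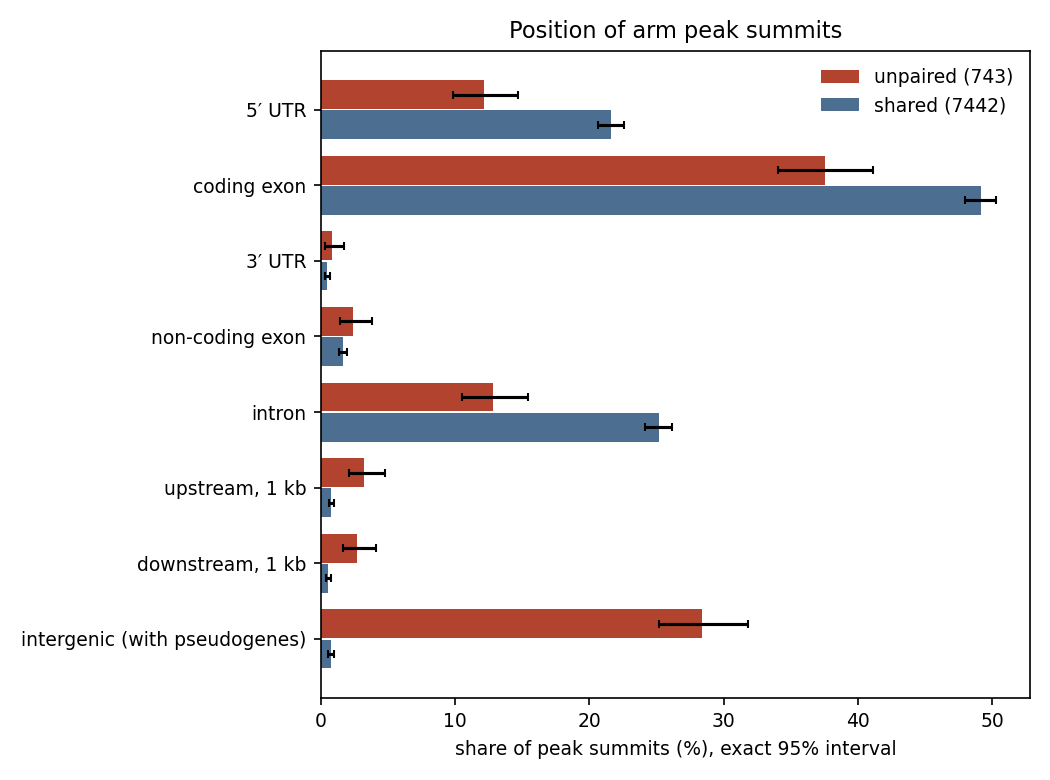
Share of summits in each position class (x axis, percent, with exact 95% intervals) for the 743 unpaired and 7442 shared arm peaks. Intergenic summits reached 28.4% in unpaired and 0.739% in shared peaks, and introns 12.8% in unpaired and 25.2% in shared peaks.

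Loci annotated as pseudogenes accounted for much of what lay outside genes. The annotation has no separate feature for transposable element genes, so the pseudogene class may include them, and it was not split here. Annotated pseudogenes held 175 of 743 unpaired summits (23.6%, 20.5 to 26.8) and 81 of 7442 shared summits (1.09%), a difference of 22.5 points (19.5 to 25.7). Of the arm windows, 1.98% lay in a pseudogene. Protein-coding genes held 469 unpaired summits (63.1%, 59.5 to 66.6) and 7183 shared summits (96.5%), a difference of -33.4 points (-36.9 to -30.0). No annotated gene or pseudogene lay under 81 unpaired (10.9%) and 72 shared summits (0.967%). Genes of other RNA types, transfer RNA among them, lay under 16 unpaired (2.15%) and 63 shared summits (0.847%), a difference of 1.31 points (0.450 to 2.64). The 175 unpaired peaks in pseudogenes fell in 112 of the 1066 arm pseudogenes, and 44 of these 112 held more than 1.

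The strongest unpaired peaks were nearly all in loci of this pseudogene class. The highest fold enrichment, 3.41, was in the pseudogene AT2G01029 on chromosome 2, whose summit window had 11 near-identical copies. The edge of this peak lay 364 bp from a replicate 1 peak. AT3G50490 had 3.00 with 18 copies, AT3G24385 had 2.90 with 10, AT1G23930 had 2.85 with 9 and AT2G23720 had 2.84 with 8. AT3G47260 carried 2 of the strongest 10, at 2.80 and 2.73, followed by AT1G27780 at 2.72 and AT1G48710 at 2.70. The 10th, at 2.69, lay downstream of AT2G01035 in no gene and had 1 near-identical copy. All 10 thus had at least 1 near-identical copy. AT1G27780, AT1G25784, AT1G21020 and AT5G19097 held 4 unpaired summits each, with fold enrichments of 1.70 to 2.72, 1.72 to 2.47, 1.71 to 1.76 and 1.38 to 1.60. None of the 4 summits in AT5G19097 had a near-identical copy.

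Near-identical copies were then counted over all peaks. Such a copy was present at 322 of 743 unpaired peaks (43.3%, 39.7 to 47.0) and at 139 of 7442 shared peaks (1.87%, 1.57 to 2.20), a difference of 41.5 points (37.9 to 45.1). In arm windows the share was 2.43%. The window was matched at 100% over its full 201 bp at 280 unpaired peaks (37.7%) and at 84 shared peaks (1.13%). Among the 1878 shared peaks in the lowest 25% of fold enrichment, with a median of 1.60, a copy was found at 26 (1.38%). Arm peaks called in replicate 1 only, 1283 in number, had a near-identical copy at 8 (0.624%). The unpaired peaks exceeded these by 42.7 points (39.1 to 46.3).

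**Figure D2:**
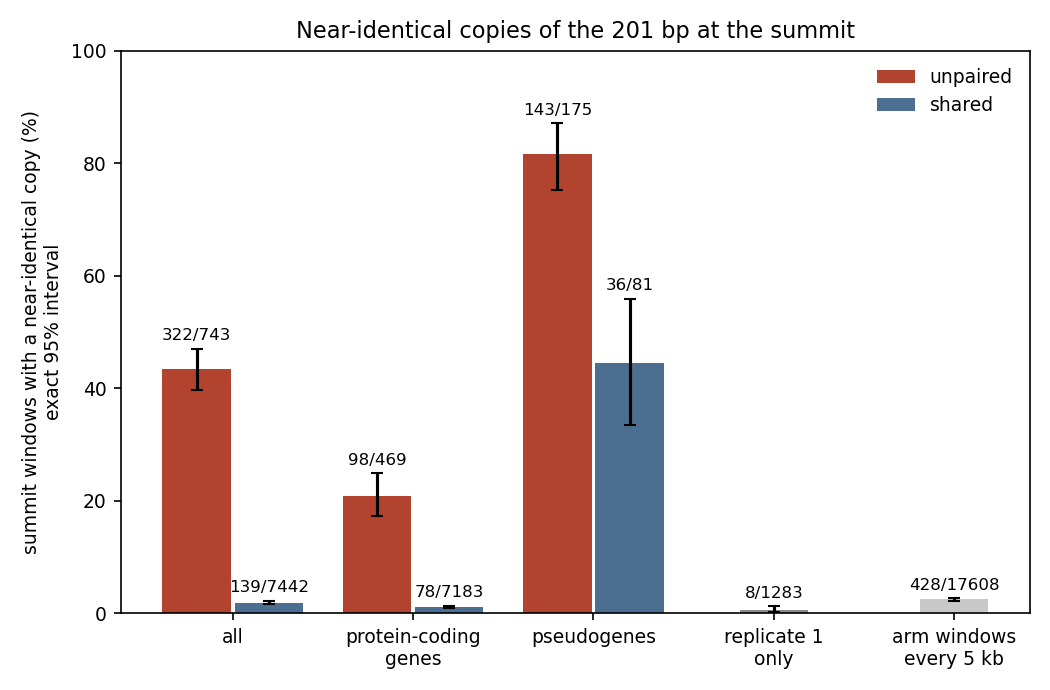
Share of peaks whose 201 bp summit window had a near-identical copy (y axis, percent, with exact 95% intervals and counts above the bars) for unpaired and shared arm peaks, all and by gene type, with replicate 1-only arm peaks and arm windows on the right. The share was 43.3% in unpaired and 1.87% in shared peaks.

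The excess was present both in protein-coding genes and in pseudogenes. In protein-coding genes a near-identical copy was found at 98 of 469 unpaired summits (20.9%, 17.3 to 24.9) and 78 of 7183 shared summits (1.09%), a difference of 19.8 points (16.4 to 23.7). In pseudogenes the counts were 143 of 175 unpaired (81.7%, 75.2 to 87.1) and 36 of 81 shared summits (44.4%, 33.4 to 55.9), a difference of 37.3 points (24.7 to 48.8). Of the 81 unpaired summits in no gene, 66 had a copy (81.5%), as did 15 of the 16 in genes of other RNA types. Matching the organelle genomes was rare, with 1 unpaired and 0 shared peaks, a share that 0 of 7442 limits to 0.0403%.

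The copies themselves were mostly in replicate 2 peaks and seldom in replicate 1 peaks. Of the 322 unpaired peaks with a near-identical copy, 106 had exactly 1, 124 had 2 to 5 and 92 had more than 5. For 274 of them (85.1%) a copy lay in a replicate 2 peak, for 213 (66.1%) in another unpaired peak and for 31 (9.63%, 6.64 to 13.4) in a replicate 1 peak. Unpaired peaks that are copies of each other are each counted. These shares were not taken for copies of shared peaks or of arm windows. Because the rule chose peaks absent from replicate 1, they are a description only. The nearest copy lay within 50 kb on the same chromosome for 131 peaks, a copy lay in a pericentromeric window for 147, and copies lay on other chromosomes only for 72. Over all of chromosomes 1 to 5, 1909 of 10898 replicate 2 peaks (17.5%) and 840 of 10266 replicate 1 peaks (8.18%) had a near-identical copy, so both lists contained peaks in duplicated DNA. On the arms the counts were 461 of 8185 (5.63%) in replicate 2 and 161 of 8805 (1.83%) in replicate 1. In the pericentromeric windows they were 1448 of 2713 (53.4%) in replicate 2 and 679 of 1461 (46.5%) in replicate 1. Among the pericentromeric peaks of replicate 2 only, 1006 of 1607 (62.6%, 60.2 to 65.0) had a near-identical copy, a larger share than the 43.3% of the unpaired arm peaks, so the trait is not particular to the arms.

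The stretches of exact identity often exceeded the sheared fragments, which the protocol puts at 200 to 500 bp. A stretch was measured as the ungapped run without a mismatch through the summit to its best copy. Over the 322 unpaired peaks with a copy its median was 642 bp, with quartiles of 378 and 1981 bp. It reached 500 bp in 195 of all 743 unpaired peaks (26.2%, 23.1 to 29.6) and 1000 bp in 125 (16.8%, 14.2 to 19.7). In shared peaks it reached 1000 bp in 30 of 7442 (0.403%), and in arm peaks of replicate 1 only it reached at most 326 bp. In 197 unpaired peaks the stretch was longer than the peak itself. The study's methods state that only uniquely mapped reads were kept, and the mapping and peak calling commands it prints show no such filter. With default settings Bowtie2 reports 1 place for a read and picks it at random among equally good ones. How reads from within these stretches entered the replicate 2 list was not tested, and read alignments were not analysed here.

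The longest stretch among unpaired peaks, 25719 bp, was a duplicated block of chromosome 5, against 30319 bp among shared peaks. Unpaired peaks there lay in SPL13A (fold enrichment 1.46), a squamosa promoter-binding transcription factor, and in both genes annotated as HSD1, a hydroxysteroid dehydrogenase. The HSD1 copies AT5G50600 and AT5G50700 had 1.51 and 1.55 at the coding exon summit and 1.41 and 1.32 at the 5′ UTR summit. AT5G50610 and AT5G50710 had 1.60 and 1.67. A stretch of 20436 bp on chromosome 1 held AT1G58936 (2.13), annotated as an inositol-pentakisphosphate 2-kinase family protein, and AT1G58725 (1.42), a GDSL-like lipase.

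Peaks at the 2 ends of a pair had nearly the same strength. There were 28 pairs of unpaired peaks in which each was the other's single near-identical copy. In all 28 pairs both ends lay on the same chromosome. In 26 pairs the ends were within 50 kb of each other, and the median distance between the ends was 13198 bp. The median absolute log2 ratio of the 2 fold enrichments was 0.05 and the largest was 0.17. Across the 28 pairs the log2 fold enrichments correlated at r = 0.91 (Pearson) and rho = 0.88 (Spearman), given as a description, since both ends share the library and the sequence. Both ends also had to be unpaired, so a pair with a shared or uncalled end could not enter. The quartiles of all unpaired peaks were 1.49 and 1.74, and peaks that are not copies of each other were not compared in this way. The pair with the highest values was AT1G59920 and AT1G59930, MADS-box family genes, at 2.16 and 2.23. The peroxidase genes AT1G05240 and AT1G05250, whose sequences are printed above, had 1.77 and 1.66. VIM4 and VIM2, which encode RING finger proteins that bind methylated DNA, had 1.55 and 1.61. SAP130a (AT3G55200) and its neighbour AT3G55220 had 1.52 and 1.55.

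**Figure D3:**
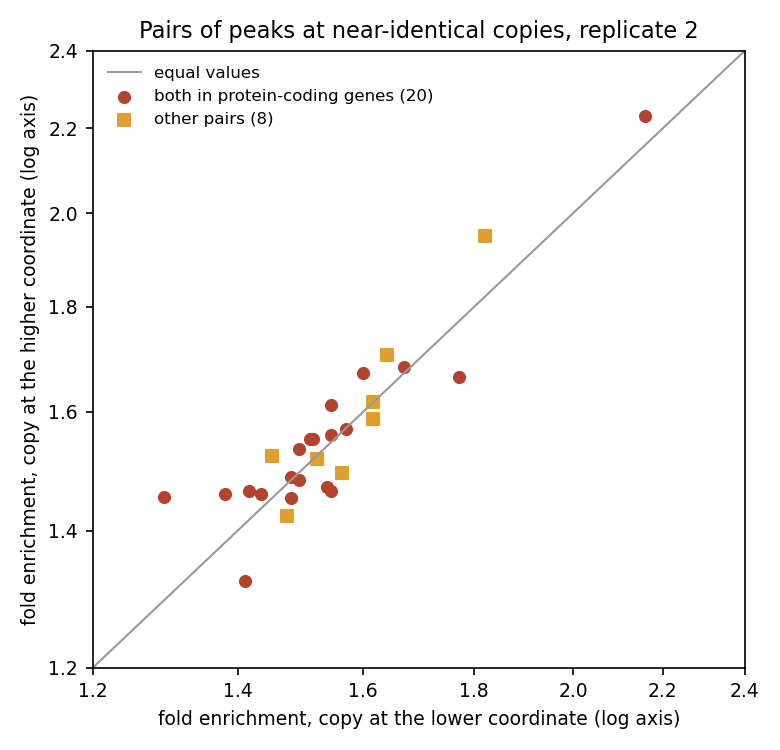
Fold enrichment in replicate 2 of the 28 pairs of unpaired peaks that were each other's single near-identical copy, with the copy at the lower coordinate on the x axis and the copy at the higher coordinate on the y axis (both log axes). Points lie close to the line of equal values, and the largest absolute log2 ratio was 0.17.

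Unpaired peaks with a copy were also grouped along the chromosome. When summits within 10 kb of the next were joined, the 743 peaks fell into 501 groups, of which 392 held a single peak. The 109 groups of 2 or more held 351 peaks, among them 266 of the 322 with a copy (82.6%) and 85 of the 421 without (20.2%). The largest group had 10 peaks over 26395 bp of chromosome 4, with fold enrichments of 1.54 to 2.32, and all 10 had a copy. It spanned AT4G19260 to AT4G19320 and included the kelch repeat gene AT4G19275 with 2 summits. In the uncharacterized RNA array on chromosome 4 whose sequence is printed above, AT4G06020, AT4G06025, AT4G06030, AT4G06035 and AT4G06040 had 2.30, 2.22, 2.47, 2.35 and 2.52. These values lay within a narrow range, and 3 pseudogenes between the genes carried unpaired peaks too.

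Tyrosine transfer RNA genes, which RNA polymerase III transcribes, formed another array on chromosome 1. AT1G56750, AT1G56780, AT1G56810, AT1G56840 and AT1G56900 had fold enrichments of 2.07, 1.84, 2.04, 2.09 and 1.90, and each summit window had 19 near-identical copies. The nearest replicate 1 peak was between 56754 and 64414 bp away, and 64414 bp was the largest gap of any unpaired peak. Upstream of a further tyrosine transfer RNA gene, AT1G57490, the fold enrichment was 2.10, where the input level was 1.19 times the background.

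The unpaired peaks with and without a near-identical copy are described apart from here on, a split made after the values were seen. Those with a copy were mostly outside protein-coding genes. Of 322 with a copy, 64.9% (59.4 to 70.1) were outside genes and 30.4% (25.5 to 35.8) in protein-coding genes. Of 421 without a copy, 10.9% (8.11 to 14.3) were outside genes and 88.1% (84.6 to 91.1) in protein-coding genes. Median fold enrichment was 1.72 with a copy (highest 3.41) and 1.55 without (highest 2.06), and median width 545 bp with and 308 bp without. Set against the shared peaks without a copy, the unpaired peaks without a copy differed by -0.58 points in coding exons (-5.46 to 4.32) and -2.29 points in 5′ UTRs (-5.92 to 1.86), intervals that include 0. They still differed by -5.91 points in introns (-9.55 to -1.74) and by 9.57 points outside genes (6.92 to 12.9). Pseudogenes held 32 of these 421 (7.60%) and 45 of the 7303 shared peaks without a copy (0.616%), a difference of 6.98 points (4.81 to 9.92).

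Distance from the transcription start was compared because shared UBP5-GFP peaks concentrated just inside genes. Summits in the first 500 bp after the nearest start of a protein-coding gene made up 311 of 743 unpaired peaks (41.9%, 38.3 to 45.5) and 5856 of 7442 shared peaks (78.7%), a difference of -36.8 points (-40.4 to -33.1). In arm windows the share was 13.4%. Within protein-coding genes, the 371 unpaired summits without a copy had a median distance from their gene's start of 357 bp, against 334 bp in shared peaks. The 98 with a copy had a median of 669.5 bp. Summits over 1000 bp from the start made up 48 of 98 with a copy (49.0%) and 25 of 371 without (6.74%), a difference of 42.2 points (32.1 to 52.2), against 3.69% of shared summits in protein-coding genes. Coding exons held 74.5% of those with a copy and 55.5% of those without, a difference of 19.0 points (8.29 to 28.1).

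**Figure D4:**
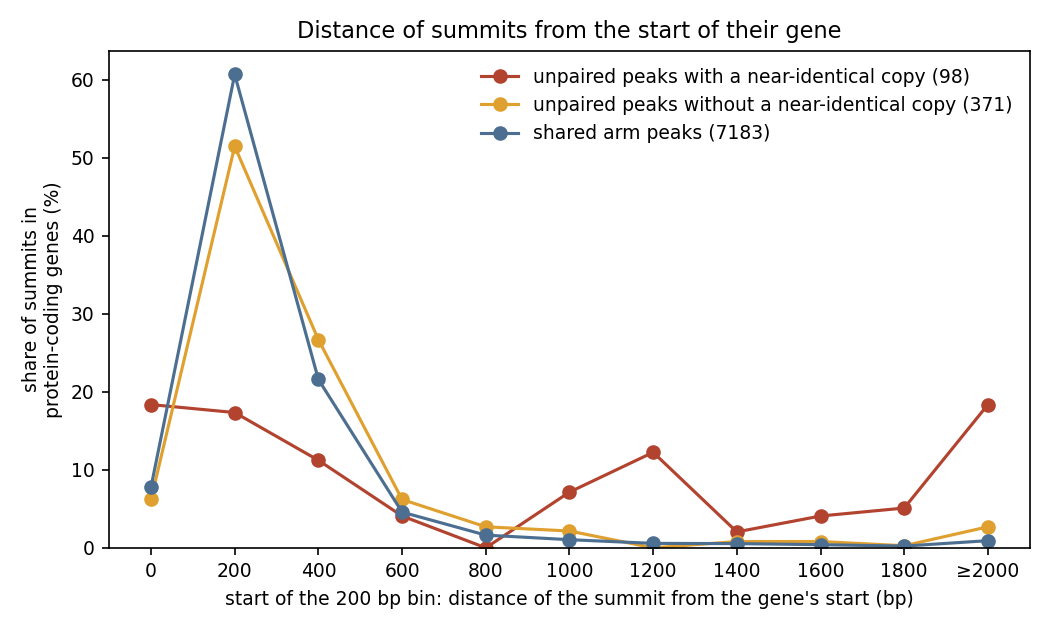
Distance of summits in protein-coding genes from the start of their gene in bins of 200 bp (x axis) and the share of summits in each bin (y axis, percent) for unpaired peaks with and without a near-identical copy and for shared peaks. From 200 to 400 bp lay 17.3% of summits with a copy, 51.5% without and 60.7% of shared summits, and at 2000 bp or more 18.4%, 2.70% and 0.919%.

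In protein-coding genes, the unpaired peaks without a copy were close in position to the weakest shared peaks. Compared with the shared protein-coding peaks among the lowest 25% of fold enrichment, they differed by 1.42 points in coding exons (-4.16 to 6.90), 1.97 points in 5′ UTRs (-2.39 to 6.81), -3.15 points in introns (-7.56 to 1.73) and -2.24 points in the first 500 bp (-7.36 to 2.50). Each of these intervals includes 0 and also allows a difference of several points. Summits over 1000 bp from the start were more frequent by 2.60 points (0.24 to 5.73). Over all positions, those without a copy differed from the lowest 25% by -8.34 points in the first 500 bp (-13.4 to -3.45). They also differed by 9.17 points outside genes (6.44 to 12.5), -8.42 in protein-coding genes (-11.9 to -5.51) and -4.91 in introns (-8.94 to -0.440). For coding exons (-8.56 to 1.97) and 5′ UTRs (-3.92 to 4.45) the intervals included 0.

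Examples of genes with a known role and no near-identical copy follow, and all but the strongest of them were picked after their values were seen. NRPD2A, the second subunit of RNA polymerases IV and V, had a fold enrichment of 1.91 in an intron 212 bp from its start, with the nearest replicate 1 peak 1054 bp away. ARP, an apurinic endonuclease-redox protein of DNA repair, had 1.84 in its 5′ UTR, and RKP had 1.88, also in the 5′ UTR. AT2G24680, a B3 family transcription factor, had 2.06 in its 5′ UTR, 180 bp from the start, which was the highest value of any unpaired peak without a copy. AT2G24830, a zinc finger and G-patch protein, had 1.88 in an intron. VIM1, a relative of VIM2 and VIM4, had 1.71 in a coding exon 376 bp from its start with no near-identical copy and a Telobox. HTA8, a histone H2A, had 1.51, and ASHH4, a histone-lysine N-methyltransferase, had 1.48, both in coding exons. ICE1, a basic helix-loop-helix factor of cold response, had 1.63, SPL11 1.69 and HSFA2, a heat shock factor, 1.5, all in 5′ UTRs. UPL4, a ubiquitin-protein ligase, had 1.61 in an intron and UBC8, a ubiquitin-conjugating enzyme, 1.45 in its 5′ UTR. The summits of these genes all lay within 500 bp of the start, and the median fold enrichment of unpaired peaks without a copy was 1.55.

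With a copy, the strongest peaks in coding exons were in uncharacterized genes. AT1G23915 had 2.41, AT1G24822 had 2.41 at a summit 2651 bp from its start and AT5G19633 had 2.24. AT1G11270, an F-box protein gene, had summits at 2.39 and 1.81, the first in an intron 4550 bp from the start. In 3′ UTRs the highest were AT4G34881 at 2.01 and the DUF23 glycosyltransferase family genes AT3G07380 at 1.71 and AT3G60990 at 1.70. In the upstream class the highest after the peak in AT3G47260 were those near AT1G25175 at 2.23 and AT1G57490. In the downstream class the highest after the peak near AT2G01035 were those in AT5G13205 at 2.54 and AT3G59720 at 2.38. The summits named in AT3G47260, AT5G13205 and AT3G59720 lay inside these pseudogenes, and their class refers to another gene nearby.

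Unpaired peaks occurred in 457 of 24059 protein-coding genes on the arms (1.9%), and shared peaks in 7233 (30.1%). Of the 457 genes, 24 (5.25%, 3.39 to 7.71) also carried a shared peak. The rule bears on this share, since an unpaired peak cannot overlap a replicate 1 peak. It is therefore given as a description of the choice only. The median length was 2542 bp for genes with an unpaired peak, 2582 bp for genes with a shared peak and 2120 bp for all. Of the 457 genes, 85 had an unpaired peak with a copy and 374 one without, which counts 2 genes under both. There were 19 genes with more than 1 unpaired summit, and AT5G46520, a TIR-NBS-LRR disease resistance gene, had 3, at 1.58, 1.46 and 1.56.

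Gene lists were counted against that background of 1.9%. Nucleotide-binding leucine-rich repeat genes, the intracellular immune receptors that often stand in tandem clusters, held an unpaired peak in 10 of 122 (8.20%), and in 8 of the 10 it had a near-identical copy. A shared peak occurred in 15 of the 122 (12.3%). In the neighbouring receptor genes AT5G46510 and AT5G46520, AT5G46510 had 1.42 and 1.55, against 1.46 and 1.56 at the copies in AT5G46520. AT4G16940 and AT4G16960 had 1.43 and 1.46, and AT1G58848 and AT1G59218 had 1.29 and 1.45, the pair of copies with the largest ratio. The receptor genes with an unpaired peak without a copy were AT1G61190 at 1.36 and AT2G16870 at 1.52. Pentatricopeptide repeat genes, which act in organelle RNA processing, held an unpaired peak in 9 of 241 (3.73%), 6 of them with a copy, and a shared peak in 100. MADS-box genes had unpaired peaks in the 2 neighbours named above, of 36.

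Other families stood near or below the background. Kinase genes held an unpaired peak in 21 of 1250 (1.68%), F-box genes in 10 of 546 (1.83%), transcription factor families in 10 of 674 (1.48%), ribosomal protein genes in 5 of 307 (1.63%), ubiquitin-related genes in 4 of 327 (1.22%), histone-related genes in 2 of 99 (2.02%) and cytochrome P450 genes in 1 of 228 (0.439%). Histone-related genes held a shared peak in 56 of the 99 and ribosomal protein genes in 99 of the 307. Protein-coding genes with transposon or reverse transcriptase in their annotation held an unpaired peak in 1 of 61 (1.64%), a count that leaves out any transposable elements in the pseudogene class. Genes of the Polycomb and PEAT complexes, the second a group of proteins with a histone acetyltransferase and a deubiquitinase that includes UBP5, held none. The counts were 0 of 8 for Polycomb repressive complex 2, 0 of 10 for complex 1, 0 of 15 for PEAT and 0 of 7 for the BASIC PENTACYSTEINE factors, against shared peaks in 6, 4, 9 and 4 of them. No unpaired peak lay in 27 ubiquitin-specific protease genes, of which 17 carried a shared peak, or in 22 developmental genes marked by Polycomb, of which 1 did. These lists are small, and at a background of 1.9% few or no genes of each would hold an unpaired peak.

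The Telobox AAACCCTA was searched on both strands within 100 bp of the summit. It was found at 50 of 743 unpaired peaks (6.73%, 5.04 to 8.78) and 1202 of 7442 shared peaks (16.2%), a difference of -9.42 points (-11.2 to -7.23), and at 2.33% of arm windows. Of the unpaired peaks, 47 of 421 without a copy (11.2%) and 3 of 322 with a copy (0.932%) had one, and 0 of 175 in pseudogenes did, a count that allows up to 1.71%. The shared peaks in the lowest 25% of fold enrichment had one at 9.69%, and against them all unpaired peaks differed by -2.96 points (-5.09 to -0.571) and those without a copy by 1.47 points (-1.55 to 5.07). The strongest unpaired peaks with the word were those of AT2G24680 at 2.06, AT1G27540 at 1.98, AT5G47170 at 1.97, RKP at 1.88 and NF-YB8 at 1.85. AT1G27540, an F-box gene, had 1 near-identical copy and an input level 2.03 times the background. The word GAGAGAGA, bound by BASIC PENTACYSTEINE factors, was found within 100 bp at 4.44% of unpaired and 7.20% of shared peaks, a difference of -2.76 points (-4.16 to -0.941), and at 3.41% of arm windows. Without near-identical copies the shares were 7.13% of unpaired and 7.24% of shared peaks, a difference of -0.12 points (-2.30 to 2.80), and against the lowest 25% of shared peaks all unpaired peaks differed by -1.20 points (-2.90 to 0.774). A word match is a description of the sequence and not a bound site.

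The unpaired peaks were spread over all chromosomes, at 8.75, 9.19, 7.90, 9.0 and 7.61 per Mb of arm on chromosomes 1 to 5. Along the arms, in steps of 0 to 1, 1 to 2, 2 to 4, 4 to 8 and 8 to 13 Mb from the pericentromeric windows, those with a copy had 4.2, 5.81, 6.0, 3.68 and 0.988 per Mb, so they thinned out only beyond 4 Mb. Those without a copy had 4.9, 6.98, 4.94, 4.11 and 4.68 per Mb. Shared peaks became denser at each step, at 64.5, 70.8, 77.5, 86.8 and 100.1 per Mb. The input level under the summit was at the background for 84.1% of unpaired and 93.6% of shared peaks. It exceeded 1.5 times the background at 17 unpaired (2.29%) and 37 shared peaks (0.497%), a larger share in unpaired peaks. The part of the input level in the calls was not tested.

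**Figure D5:**
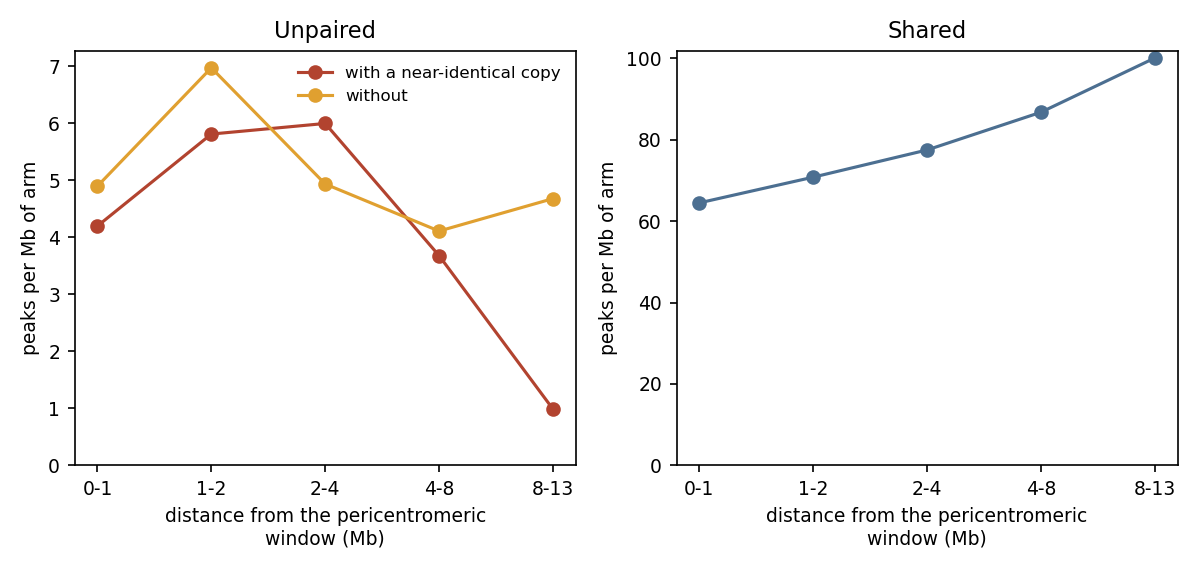
Peaks per Mb of chromosome arm (y axis) by distance from the pericentromeric window (x axis, Mb) for unpaired peaks with and without a near-identical copy on the left and for shared peaks on the right, with separate y scales. At 8 to 13 Mb there were 0.988 per Mb with a copy, 4.68 without and 100.1 shared.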

How the data were processed

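Peak lists of 2 UBP5-GFP IP replicates were analysed, and groups and replicate numbers come from the sample labels. Per the methods and labels, the authors cleaned reads using SOAPnuke, mapped them using Bowtie2 2.4.5 to TAIR10, kept uniquely mapped reads and called peaks per replicate against 1 input with MACS3 3.0.0 at a false discovery rate of 0.01. The methods then take the peaks common to both replicates, a step that leaves out the unpaired peaks described here. Each deposited list holds a fold enrichment (a ratio), the −log10 of the p-value and the −log10 of the q-value at the summit; a score column was not used. The mapping command that the study prints uses default Bowtie2 settings, and no filter on multiply mapping reads is shown between it and the paired-end peak call, although the methods text states one. Duplicate removal is not stated for these libraries.

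Read totals were not analysed here. The study's reporting summary lists several times more raw and uniquely mapped reads for UBP5-GFP replicate 2 than for replicate 1. Both of these ratios are larger than the ratio of the background levels of the 2 replicates, 2.775, and the reason was not tested. The background level was found from the fold enrichment together with the p-value, taken as a Poisson tail, and depth limits which ratios could be called. Summits were placed in the RefSeq TAIR10.1 annotation with 5′ UTRs first, then coding exons, 3′ UTRs, non-coding exons, introns, the 1000 bp before and after a gene, and intergenic DNA. Summit windows of 201 bp were searched with BLAST 2.17.0. Python 3.11.15, pandas 2.3.3, numpy 2.4.6, scipy 1.17.1, statsmodels 0.14.6 and matplotlib 3.10.9 were used. Peak overlaps, gaps and exact intervals were checked on simulated data. That an input level can be recovered from fold enrichment and p-value was checked there too, with a separate search. The copy search, exact stretches, position classes and word search were not checked in this way. Shares have exact (Clopper-Pearson) 95% intervals, a count of 0 allows 3 counts of the total, and no test was run, since peaks of 1 library are not replicates.

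The peaks and gene lists were chosen with earlier results of these data known. Genes named are those at the 10 strongest unpaired peaks, with several summits, among the top 3 of a position class, on a named list, or among the 5 strongest with a Telobox. Others, the transfer RNA genes among them, were chosen after their values were seen, as was the split by near-identical copies. Alternatives covered the overlap, q-value, fold enrichment, windows, summit position, gene definition, motif word and window, and the comparison set.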

Additional observations from a re-analysis of the deposited data

How the results depend on the processing

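Of 83 alternatives to 16 results, 58 kept the value within its 95% interval (for counts, within 1.5 times), 25 moved it and 0 reversed it. The 83 did not include 2 comparisons given above in which the sign differed. Within protein-coding genes the coding exon difference was 8.58 points, against -11.6 over all peaks. Without a copy, against the lowest 25% of shared peaks, the Telobox difference was 1.47 points (-1.55 to 5.07), against -9.42 over all peaks. Keeping only unpaired peaks with a fold enrichment of at least 1.53, the lowest called in replicate 1 at background, left 467, with 33.6% in coding exons, 40.5% outside genes, 57.0% in protein-coding genes and 51.4% with a near-identical copy. Without peaks that had a near-identical copy, a choice made after seeing the data, 421 remained, with 48.9% in coding exons, 19.5% in 5′ UTRs, 10.9% outside genes, 64.1% within 500 bp of a start, 88.1% in protein-coding genes, 11.2% with a Telobox and 2.94% of their genes also carrying a shared peak. The differences from shared peaks without a copy were then -0.583 points in coding exons, -2.29 in 5′ UTRs, 9.57 outside genes, -15.3 near starts, -9.17 in protein-coding genes and -5.1 for the Telobox. Against the 25% of shared peaks with the lowest fold enrichment, the differences were -30.6 near starts and -2.96 for the Telobox. Counting pseudogenes as genes left 10.9% outside genes. The Telobox was at 3.5% of unpaired peaks within 50 bp, at 16.6% within 250 bp, and the inner 6 letters were at 15.3% within 100 bp. Requiring a gap of 500 bp, a stricter q-value, wider pericentromeric windows, peak midpoints, replicate 1 coordinates or 50% overlap moved no share beyond its interval. The cause of each move was not tested, except that leaving out peaks with a copy removes them by construction. No paired analysis was possible because the result comes from no test, and leaving out a replicate could not be done because the rule needs both lists. With 2 lists and 1 input, a peak missing from replicate 1 cannot be told apart from one below its calling ratio.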
